A study of Mus musculus with 16 samples.

Results

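Dorsal skin of mice with an active Mek1 allele was compared with control skin over 10232 genes. The members were the 4 arrays titled Mek1gof and the 4 titled control, 8 of the 16 arrays of the series, taken by title alone and not by any measured value. Mek1gof mice were named Krox20-cre; Mek1fstop/+, that is, they carried the Krox20-cre driver and 1 copy of a Mek1 allele with a removable stop. The labels give the other mice only as control, without their genotype, so it is not known whether they carried the driver. The remaining 8 arrays, 4 of Double mice with the Mek1 allele and floxed Shp2 and 4 of Shp2lof mice with the driver and floxed Shp2 (Krox20-cre:Shp2fl), served as a second setting for the same Mek1 allele. All mice were 15 days old, their strain is given as C57/BL6;129Ola mixed, and all RNA came from dorsal skin. Nothing in the labels ties the 4 samples of a group to different animals. Sex-linked levels, given below, differed within the Mek1gof and within the control group, so not all 4 samples of either came from 1 animal. How many animals each group held is not known, and the p-values therefore rest on a spread between samples that may be partly technical.

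Mek1, encoded by Map2k1, is the kinase that phosphorylates and activates ERK at the end of the cascade that runs from growth factor receptors through Ras and Raf. In skin this cascade acts on keratinocyte growth and differentiation and on the hair follicle, and in peripheral nerve it acts on Schwann cells and their myelin. Krox20, the product of Egr2, is a transcription factor of hair follicle cells and of myelinating Schwann cells, so a Krox20-cre allele can act in only part of the cells of a skin sample. The Illumina bead arrays read the summed RNA of all cells in each sample, and fewer cells of a type and less RNA per cell cannot be told apart. Levels below are log2 signals after background correction and quantile normalization, and differences are Mek1gof minus control on that scale.

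Keratinocyte and dermal markers were high on all 8 arrays. The basal keratin Krt14 lay between 14.94 and 15.23 in Mek1gof skin and between 15.03 and 15.15 in control skin. Krt10, a keratin of differentiating epidermis, lay between 13.90 and 14.64 in Mek1gof skin, against 13.80 to 14.37 in control skin, and the collagen gene Col1a1 between 11.93 and 12.86, against 12.65 to 13.03. Each group had 2 arrays on each of 2 slides, and the position on the slide went with the group. In Mek1gof skin the female transcript Xist was high on both slide 1 arrays (9.29 and 8.82, against 5.02 and 5.77 on slide 2), and the Y-linked Eif2s3y was high on both slide 2 arrays (10.58 and 10.80, against 5.10 and 6.77). Among controls each slide held 1 array high in Xist and 1 high in Eif2s3y, so within Mek1gof skin slide and sex-linked pattern cannot be told apart. The list of skeletal muscle genes also read lower on average in Mek1gof skin, mainly on the slide 2 arrays, and the groups overlapped. The mean level of the 27 measured members of that list was 10.63, 10.74, 9.78 and 9.93 on Mek1gof arrays 1 to 4, against 10.80, 11.04, 11.17 and 10.50 on control arrays 1 to 4, and Acta1, the skeletal actin, lay between 12.95 and 13.78, against 13.46 to 14.27. The part of muscle RNA in the differences below was not tested beyond a fit with its level as a covariate.

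Mek1gof skin differed from control skin in 52 of 10232 genes, 0.508% of those tested, at a Benjamini-Hochberg adjusted p below 0.05 in limma. In all, 35 genes were higher (0.342% of all) and 17 lower (0.166%), and 15 of the higher and 8 of the lower genes changed by more than 2-fold. The genes that rose include enzymes of lipid synthesis, the myelin lipid-binding protein Pmp2, the interleukin receptor Il13ra2 and glutathione transferases, and the genes that fell include Hamp2, Serpina3b, Aqp4, Ddx6 and Ppargc1a. For all 52 genes the 4 Mek1gof arrays lay wholly outside the range of the 4 control arrays, which held for 6.05% of all genes, 3.54% with Mek1gof higher and 2.51% with it lower. The 52 were selected on these same arrays, so their separation is no further support. At an unadjusted p under 0.05, 505 genes were higher (4.94%) and 471 lower (4.60%), and the median difference over all genes was 0.02.

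Slide and single arrays moved the number of calls. With slide as a block 84 genes passed, with all 52 among them. With only the 8 Mek1gof and control arrays in the fit 54 genes passed, but only 38 of the 52 were among them. Aqp4, Pyy, Etv4, Acly, Msmo1, Plin2, Spry3, Ago3, Rufy3, Tmem97, Psat1, Nipsnap1, Rcl1 and Lrrc8d lost their calls there. Slide 1 alone gave 28 genes, 14 of them shared, and slide 2 alone 193 genes, 31 of them shared. All 35 higher genes had a positive difference and all 17 lower genes a negative one on each slide. This follows from their arrays not overlapping and is no separate check. Without control 2 only 15 genes passed, without control 3 16, without Mek1gof 4 19, without Mek1gof 3 31 and without Mek1gof 2 32. The 11 genes Hamp2, Pmp2, Tmem45b, Fa2h, Elovl3, Il13ra2, Acox2, Mgll, Ppargc1a, Mvd and Rnf125 passed whichever of the 8 arrays was left out, and the other 41 were lost without at least 1 array. With muscle list level as covariate 11 genes passed, of which Pmp2, Tmem45b, Fa2h, Elovl3, Mgll, Urod, Ago3, Ddr2, Serpina3b and Hamp2 were among the 52. Without normalization between arrays 24 genes passed, of which 41.7% were higher (10 higher and 14 lower), against 67.3% of the 52, and the median over all genes was then -0.12.

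**Figure D1:**
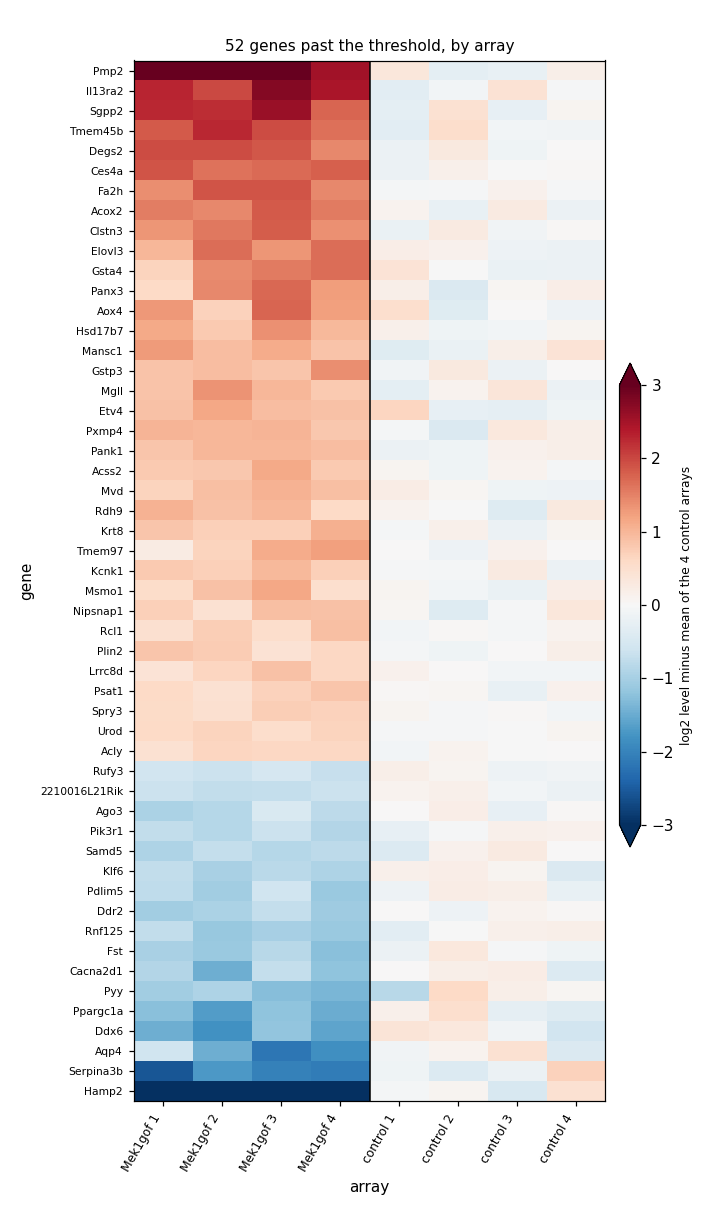
Level of each of the 52 genes on the 4 Mek1gof arrays (left) and the 4 control arrays (right), as the log2 level minus the mean of the control arrays, with red above and blue below that mean and colours capped at 3 in either direction. Rows run from the highest to the lowest difference, from Pmp2 (3.46) to Hamp2 (-5.34), and the arrays of the groups do not overlap for any of the genes.

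Cholesterol synthesis builds sterols from acetyl-CoA through mevalonate, squalene and lanosterol, and its enzymes are known to be controlled together by the transcription factor SREBP2, encoded by Srebf2. Mek1gof skin had more transcript of 3 of the 15 measured enzymes, against 0.342% of all genes, none was lower, and 12 did not pass. The median difference of the 15 was 0.52, against 0.02 over all genes, and all 15 differences were above 0. The list gave a median of 0.35 on slide 1 and 0.63 on slide 2. Of the 15 genes 6 had Mek1gof arrays wholly above the control arrays, which held for 3.54% of all genes.

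Hsd17b7, which reduces the sterol ketone during removal of the methyl groups, read 11.73, 11.40, 11.98 and 11.57 in Mek1gof skin, against 10.75, 10.47, 10.53 and 10.68 in control skin. Every Mek1gof array was above every control array, and the gene rose 2.09-fold (log2 difference 1.06 ± 0.19, SE, n = 4 each, limma adjusted p = 0.0135). Mvd, which makes isopentenyl diphosphate from mevalonate diphosphate, read 8.21, 8.47, 8.59 and 8.46 in Mek1gof skin, against 7.77, 7.62, 7.43 and 7.40 in control skin. The slide 2 arrays stood further apart than the slide 1 arrays (1.11, against 0.65), and the gene rose 1.84-fold (0.88 ± 0.14, adjusted p = 0.00885). Msmo1, the sterol methyl oxidase, read 11.14, 11.48, 11.75 and 11.09 in Mek1gof skin, against 10.68, 10.50, 10.41 and 10.80 in control skin, and rose 1.70-fold (0.77 ± 0.17, adjusted p = 0.0468). Array Mek1gof 4 came close to control 4, and its call was lost without any 1 of 6 arrays (adjusted p at most 0.169). Hsd17b7 was lost without control 2 or control 3 (adjusted p at most 0.0581), while Mvd passed in every such fit (at most 0.0431). All of these calls, that of Mvd too, were lost with unnormalized signals, on slide 1 alone and with muscle list level as covariate. Mvd then gave an adjusted p of up to 0.215 in limma.

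Among the enzymes that did not pass, Pmvk, the phosphomevalonate kinase, differed by 0.60, Dhcr7, the last reductase of the pathway, by 0.74, Lss, the lanosterol synthase, by 0.55, Fdps by 0.52, Hmgcs1 by 0.31, Cyp51 by 0.26 and Sc5d by 0.07. None of the 8 measured genes of sterol sensing and uptake passed. Their median was -0.10 and their range -0.31 to 0.20, which overlaps that of the enzymes, and a difference between the lists was not tested. Srebf2 itself differed by 0.20, Insig1, the sterol-responsive retention factor, by 0.09, and Abca1, the cholesterol exporter, by -0.11.

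Fatty acid synthesis starts from cytosolic acetyl-CoA and ends in elongated and desaturated acyl chains. Of its 14 measured genes 2 rose, against 0.342% of all genes, none fell and 12 did not pass. The median was 0.31, against 0.02 over all genes. Acss2, which makes acetyl-CoA from acetate, read 9.89, 9.93, 10.26 and 9.90 in Mek1gof skin, against 9.20, 8.98, 9.22 and 9.05 in control skin. Array Mek1gof 3 was the highest, the other Mek1gof arrays were close together, and the gene rose 1.84-fold (0.88 ± 0.15, adjusted p = 0.0123, limma). Acly, which makes acetyl-CoA from citrate, read 12.75, 12.93, 12.92 and 12.91 in Mek1gof skin, against 12.20, 12.40, 12.27 and 12.29 in control skin, and rose 1.503-fold (0.59 ± 0.12, adjusted p = 0.0326). Acss2 was lost without control 2 (adjusted p = 0.0527) and Acly without any 1 of 7 arrays (at most 0.114). Both were also lost with unnormalized signals, on either slide alone and with muscle list level as covariate. The elongase Elovl6 differed by 1.20 without passing, Acaca, which commits acetyl-CoA to fatty acids, by 0.40, Scd1, the stearoyl-CoA desaturase, by 0.33 and Mlxipl, a carbohydrate-responsive factor, by -0.28.

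The promoters of these 5 enzymes, as 250 bases before to 50 bases after the gene start in RefSeq on GRCm38.p6, show what their start regions share in letters. Capitals mark CCAAT on either strand (ATTGG on the reverse) and, in Hsd17b7, the E-box CACGTG.
Mvd, chr8:122443373-122443672, strand minus: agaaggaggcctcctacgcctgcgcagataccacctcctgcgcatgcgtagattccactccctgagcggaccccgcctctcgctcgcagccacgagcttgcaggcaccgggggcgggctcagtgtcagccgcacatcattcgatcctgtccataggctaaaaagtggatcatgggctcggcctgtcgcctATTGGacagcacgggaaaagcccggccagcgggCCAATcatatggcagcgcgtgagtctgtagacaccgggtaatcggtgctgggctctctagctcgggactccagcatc
Hsd17b7, chr1:169969156-169969455, strand minus: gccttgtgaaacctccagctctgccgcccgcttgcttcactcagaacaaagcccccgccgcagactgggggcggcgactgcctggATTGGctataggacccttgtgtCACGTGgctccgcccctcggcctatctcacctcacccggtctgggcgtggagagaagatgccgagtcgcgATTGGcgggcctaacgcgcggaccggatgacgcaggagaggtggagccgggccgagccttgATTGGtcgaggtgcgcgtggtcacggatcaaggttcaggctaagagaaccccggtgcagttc
Msmo1, chr8:64733529-64733828, strand minus: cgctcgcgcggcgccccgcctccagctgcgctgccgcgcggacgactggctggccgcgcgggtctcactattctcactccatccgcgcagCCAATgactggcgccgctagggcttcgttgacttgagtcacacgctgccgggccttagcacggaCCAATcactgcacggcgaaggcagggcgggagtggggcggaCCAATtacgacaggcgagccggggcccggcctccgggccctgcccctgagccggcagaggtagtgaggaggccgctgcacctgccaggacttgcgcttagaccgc
Acss2, chr2:155517793-155518092, strand plus: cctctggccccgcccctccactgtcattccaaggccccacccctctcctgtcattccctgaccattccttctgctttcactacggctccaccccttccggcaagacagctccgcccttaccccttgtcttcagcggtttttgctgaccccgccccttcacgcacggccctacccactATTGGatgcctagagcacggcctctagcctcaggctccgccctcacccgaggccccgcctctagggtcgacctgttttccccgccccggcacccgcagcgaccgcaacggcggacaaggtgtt
Acly, chr11:100527951-100528250, strand minus: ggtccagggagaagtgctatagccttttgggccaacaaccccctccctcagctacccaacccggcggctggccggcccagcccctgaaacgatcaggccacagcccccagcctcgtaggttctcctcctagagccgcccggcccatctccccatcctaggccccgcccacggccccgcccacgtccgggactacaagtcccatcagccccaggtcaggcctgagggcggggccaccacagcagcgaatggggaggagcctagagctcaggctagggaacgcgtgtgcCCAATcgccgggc
CCAAT, the letters read by the factor NF-Y, occurred in the promoters of all 13 cholesterol synthesis genes with a promoter entry, of 15 measured, and of 7 of 11 fatty acid synthesis genes, of 14 measured. Over all 32851 promoters of the table, counted by promoter and not by gene, it occurred in 37.4%. The sterol element TCACNCCAC was found in 1 of the 13, Hmgcs1, and in 1 of the 11, Mlxipl, against 1.24% of all promoters, and CACGTG in 3 and 2, against 7.15%. Both strands were searched, and TCACNCCAC and CACGTG can overlap in their CAC. A match is a description of these windows and not a binding site.

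Sphingolipids carry the water barrier of the epidermis and the lipid of myelin. Of 24 measured sphingolipid and ceramide enzymes 3 rose, against 0.342% of all genes, none fell and 21 did not pass. Their median was 0.17, against 0.02 over all genes. Fa2h, which adds the 2-hydroxyl group to the fatty acids of sphingolipids, read 12.43, 12.94, 12.93 and 12.50 in Mek1gof skin, against 10.99, 11.01, 11.18 and 11.01 in control skin. Both groups were tight, more than 1 unit lay between them, and the gene rose 3.14-fold (1.65 ± 0.22, adjusted p = 0.00171, limma). Degs2, which desaturates and hydroxylates dihydroceramides, read 6.78, 6.76, 6.69 and 6.26 in Mek1gof skin, against 4.64, 5.10, 4.70 and 4.82 in control skin (3.502-fold, 1.81 ± 0.32, adjusted p = 0.0135). Sgpp2, a phosphatase of sphingosine 1-phosphate, read 7.03, 6.98, 7.34 and 6.52 in Mek1gof skin, against 4.47, 5.22, 4.52 and 4.85 in control skin (4.61-fold, 2.20 ± 0.41, adjusted p = 0.018). Degs2 and Sgpp2 were detected on all 4 Mek1gof arrays and on 1 control array each, so their fold changes start near the background. Degs2 was lost without control 3 (adjusted p = 0.0563) and Sgpp2 without any 1 of control 1, control 3, Mek1gof 2 and Mek1gof 3 (at most 0.0786). Elovl4, the elongase of the very long chains of skin ceramides, differed by 0.98, Degs1 by 0.69 and Ugt8a, which makes galactosylceramide, by 0.62, none past the threshold. Sgms1, a sphingomyelin synthase, differed by -0.34.

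Sebaceous glands fill with lipid and release it onto the hair. Of 11 measured sebaceous genes 2 rose, against 0.342% of all genes, and 9 did not pass, at a median of 0.30. Elovl3, an elongase of the gland, read 8.74, 9.43, 9.07 and 9.44 in Mek1gof skin, against 7.96, 7.88, 7.59 and 7.58 in control skin, and rose 2.68-fold (1.42 ± 0.19, adjusted p = 0.00171, limma). Plin2, which coats lipid droplets, averaged 7.68 ± 0.18 in Mek1gof skin and 7.02 ± 0.14 in control skin (SD, n = 4 each) and rose 1.59-fold (0.67 ± 0.14, adjusted p = 0.0402), a call lost without any 1 of 6 arrays (at most 0.158). Awat2, a wax ester synthase, differed by 0.77 and Cidea, a lipid droplet protein, by 1.20 without passing, and Pparg, a lipid transcription factor, by 0.28. Dgat1, the triglyceride synthase, which is in the adipocyte list, read 7.51, 7.83, 7.91 and 7.36 in Mek1gof skin, against 7.03, 6.72, 6.93 and 6.66 in control skin. Its groups did not overlap, but the difference of 0.81 missed the threshold (adjusted p = 0.0562). None of the 19 adipocyte genes passed, and their median was -0.02.

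Peroxisomes shorten long and branched acyl chains. Of 13 measured genes 1 rose, against 0.342% of all genes, and 12 did not pass, at a median of 0.17. It was Acox2, the oxidase of branched chains, at 7.91, 7.82, 8.22 and 7.94 in Mek1gof skin, against 6.49, 6.16, 6.65 and 6.21 in control skin. The lowest Mek1gof array stood more than 1 unit above the highest control array, and the gene rose 3.02-fold (1.59 ± 0.23, adjusted p = 0.00292, limma), although with muscle list level as covariate it did not pass (adjusted p = 0.0692). Cat, the catalase, differed by -0.66 without passing.

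Pmp2, a carrier of fatty acids in the myelin of peripheral nerve, had the highest difference of all genes tested. It read 9.61, 8.88, 8.51 and 7.75 in Mek1gof skin, against 5.57, 4.93, 5.01 and 5.40 in control skin. The slide 1 arrays were higher than the slide 2 arrays in Mek1gof skin, with differences of 4.00 and 2.93, and the gene rose 11.02-fold (3.46 ± 0.28, adjusted p = 2.38e-06, limma). Of the 15 measured Schwann cell and myelin genes only Pmp2 and Fa2h passed, both higher, against 0.342% of all genes. The list median was 0.22. Other genes of the list read far smaller differences: Ugt8a 0.62, Mbp 0.50, Ngfr 0.45, Mag 0.39, Pmp22 0.09, Cnp -0.13 and Egr2 -0.26, with 0 of these past the threshold. Of the 15 differences 12 were above 0. In limma 5 of the genes, Pmp2 and Fa2h among them, were higher at an unadjusted p under 0.05, against 4.94% of all genes. Mbp was at 10.76, 9.77, 9.23 and 9.04 in Mek1gof skin, against 8.94, 9.19, 9.21 and 9.47 in control skin, so that only the slide 1 Mek1gof arrays stood above the controls. The list median was 0.42 on slide 1 and -0.08 on slide 2.

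Enzymes that detoxify lipids and aldehydes were split. Of 19 measured esterases and detoxifying oxidases 2 rose, against 0.342% of all genes, and 17 did not pass, at a median of 0.00. Ces4a, a carboxylesterase, read 6.80, 6.54, 6.61 and 6.71 in Mek1gof skin, against 4.75, 5.06, 4.90 and 4.95 in control skin, where it was detected on 2 of 4 arrays, and rose 3.36-fold (1.75 ± 0.31, adjusted p = 0.0135, limma). Gsta4, a glutathione transferase of lipid aldehydes, read 5.93, 6.67, 6.82 and 6.93 in Mek1gof skin, against 5.67, 5.25, 5.07 and 5.08 in control skin. Mek1gof 1 came close to control 1, and the gene rose 2.50-fold (1.32 ± 0.25, adjusted p = 0.018). Aox4, an aldehyde oxidase of skin, belongs to no list and read 6.37, 5.79, 6.83 and 6.33 in Mek1gof skin, against 5.59, 4.72, 5.09 and 4.93 in control skin (2.37-fold, adjusted p = 0.018, detected on 2 control arrays). These calls were lost without 3 (Ces4a), 5 (Gsta4) and 4 (Aox4) of the 8 arrays, each left out alone (adjusted p at most 0.0549, 0.084 and 0.0877). Aldh1a1, a retinal dehydrogenase, differed by -0.71 and Fmo1, a flavin monooxygenase, by -0.55 without passing.

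**Figure D2:**
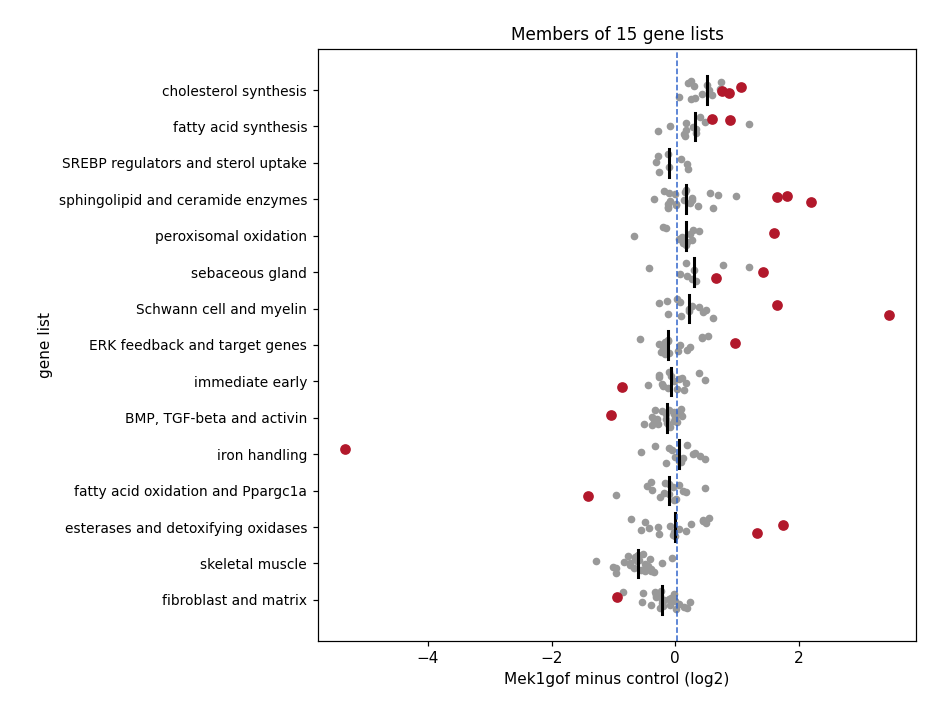
Mek1gof minus control (log2) for each measured member of 15 gene lists, with red points past the adjusted threshold, grey points not, a black bar at the list median and a dashed line at the median of all genes (0.02). Cholesterol synthesis lies wholly to the right (median 0.52) and skeletal muscle wholly to the left (median -0.60), while other lists hold 1 or 2 outlying members such as Pmp2 and Hamp2.

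The altered gene, the phosphatase gene and the driver gene did not pass. Map2k1 read 6.24, 5.95, 6.71 and 6.74 in Mek1gof skin, against 6.26, 5.97, 6.90 and 7.12 in control skin, so slide 2 arrays were higher than slide 1 arrays in both groups (difference -0.15, adjusted p = 0.913, limma). The place of its probe relative to the altered part of the allele was not used here, so this reading checks neither the labels nor the activity of the kinase. Ptpn11 differed by 0.07 (adjusted p = 0.913) and Egr2 by -0.26 (adjusted p = 0.736). None of the 12 measured Ras and ERK cascade genes passed, at a median of 0.01, and their differences lay between -0.42 for Rasa1, a Ras inhibitor, and 0.18 for the adaptor Shc1.

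Transcripts that report ERK activity in other tissues gave 1 call. Of 18 measured ERK feedback and target genes only Etv4 rose, against 0.342% of all genes. The other 17 did not pass, and the median was -0.11. Etv4, an ETS factor induced by ERK, read 7.79, 8.08, 7.85 and 7.78 in Mek1gof skin, against 7.55, 6.67, 6.64 and 6.79 in control skin. Control 1 came close to the Mek1gof arrays, and the 1.95-fold rise (0.96 ± 0.20, adjusted p = 0.0343, limma) was lost without any 1 of 7 arrays (adjusted p at most 0.148). The ERK phosphatase genes Dusp6 and Dusp4 differed by 0.43 and 0.44 and Dusp7 by -0.57, Ccnd1 by 0.53, Spry4 by -0.17 and Etv5 by -0.27, none past the threshold. Spry3, a member of the Sprouty family of receptor kinase inhibitors, was not well above background on any control array (4.60, 4.49, 4.55 and 4.44) and was detected on all 4 Mek1gof arrays (5.08, 5.01, 5.25 and 5.22). It was at least 1.17-fold higher (adjusted p = 0.018), where the bound sets the Mek1gof mean against the lowest signal well above background on each control array.

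Immediate early genes, the first transcripts after ERK activation, held no increase. Of 17 measured members 1 fell, against 0.166% of all genes, and 16 did not pass. The median was -0.06, with Egr1 at -0.06 and Fos at 0.06. The member that fell was Klf6, a zinc finger factor, at 10.10, 9.87, 10.02 and 9.92 in Mek1gof skin, against 10.98, 11.03, 10.92 and 10.41 in control skin (1.81-fold lower, -0.86 ± 0.15, adjusted p = 0.0135, limma). Control 4 was the control nearest to the Mek1gof arrays, and the call was lost without control 2, control 3 or Mek1gof 4 (adjusted p at most 0.0699). None of 9 EGF receptor ligand and receptor genes and none of 12 fibroblast growth factor and receptor genes passed (medians -0.08 and -0.11).

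Il13ra2, the decoy receptor that binds interleukin 13, had the next highest difference after Pmp2. It read 7.64, 7.33, 8.10 and 7.80 in Mek1gof skin, against 5.03, 5.27, 5.79 and 5.31 in control skin, and no Mek1gof array came within 1 unit of a control array. It rose 5.16-fold (2.37 ± 0.33, adjusted p = 0.00227, limma), by 2.34 on slide 1 and 2.40 on slide 2, but did not pass with muscle list level as covariate (adjusted p = 0.0581). Of the 9 measured genes of type 2 cytokine receptors and targets it was the only one called, against 0.508% of all genes. Stat6, which carries the interleukin 13 signal, differed by 0.47, Il13 by 0.38, the signalling receptor Il13ra1 by -0.21 and Retnla, a macrophage target, by -0.77, none past the threshold.

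Further increases above 2-fold belong to no list. Tmem45b, a transmembrane protein gene, read 9.83, 10.24, 9.95 and 9.63 in Mek1gof skin, against 7.66, 8.503, 7.91 and 7.87 in control skin, and rose 3.80-fold (1.92 ± 0.24, adjusted p = 0.00118, limma). It passed in all 26 alternative fits, as did Pmp2, Fa2h and Hamp2. Clstn3, a calsyntenin of cell adhesion, read 7.58, 7.84, 8.08 and 7.62 in Mek1gof skin, against 6.06, 6.53, 6.14 and 6.28 in control skin (2.88-fold, 1.53 ± 0.26, adjusted p = 0.0135), a call lost without control 3 (adjusted p = 0.0531). Panx3, a pannexin channel gene, read 9.33, 10.19, 10.46 and 9.99 in Mek1gof skin, against 8.91, 8.32, 8.80 and 8.93 in control skin (2.38-fold, adjusted p = 0.0326). Mansc1 rose 2.06-fold (adjusted p = 0.0402), with Mek1gof arrays from 9.50 to 9.93 and control arrays from 8.29 to 9.05. Panx3 and Mansc1 were lost without any 1 of 6 and 7 arrays (adjusted p at most 0.145 and 0.158).

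The 16 other genes past the threshold fell outside the naming rule and are named after their values were seen. The 14 that rose were Mgll, the monoacylglycerol lipase (0.99), Pank1, which starts coenzyme A synthesis (0.94), the peroxisomal membrane protein gene Pxmp4 (0.96), the retinol dehydrogenase gene Rdh9 (0.87), the sterol-regulated Tmem97 (0.82), the glutathione transferase gene Gstp3 (1.00), the simple-epithelial keratin gene Krt8 (0.83), the potassium channel gene Kcnk1 (0.80), the mitochondrial Nipsnap1 (0.74), the ribosome biogenesis gene Rcl1 (0.67), the anion channel subunit gene Lrrc8d (0.64), the serine synthesis gene Psat1 (0.64), the Sprouty gene Spry3 given above and the heme synthesis gene Urod (0.61). Of the 2 other Mgll probes 1 gave 0.89 (adjusted p over all probes 0.0239, limma) and the other, a dimmer one, -0.04. The other Pank1 probe, with a mean level of 5.22, against 10.81 for the probe used, read 0.02. Urod was the tightest of them, at 11.67, 11.75, 11.61 and 11.75 in Mek1gof skin, against 11.05, 11.06, 11.07 and 11.16 in control skin (adjusted p = 0.0135, limma). Krt18, the partner keratin of Krt8, differed by 0.85 without passing (adjusted p = 0.12). Of the 2 that fell, 2210016L21Rik differed by -0.69, and Rufy3 was not well above background on any Mek1gof array and was at least 1.32-fold lower. Of these 16 genes all but Mgll lost their call without at least 1 array (adjusted p at most 0.18).

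Hamp2, a hepcidin gene whose close relative Hamp makes the liver hormone of iron balance, had the lowest difference of all genes tested. It read 6.54, 5.28, 4.67 and 4.79 in Mek1gof skin, against 10.60, 10.74, 10.17 and 11.12 in control skin. Every Mek1gof array was far below every control array, only 2 of the 4 were detected, and the gene fell to 5.32 ± 0.86 in Mek1gof skin, against 10.66 ± 0.39 in control skin (SD, n = 4 each), 40.5-fold lower (-5.34 ± 0.41, SE, adjusted p = 1.38e-06, limma). Of the other 14 measured iron genes none passed, and the list median was 0.06. Tfrc, the transferrin receptor, differed by 0.10, Slc40a1, the iron exporter that hepcidin acts on, by 0.13, Fth1, a ferritin subunit, by -0.10 and Hfe, an iron sensor, by -0.55.

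Serpina3b, a serine protease inhibitor gene with close paralogs whose transcripts may share probes, read 6.21, 7.06, 6.75 and 6.67 in Mek1gof skin, against 8.66, 8.37, 8.61 and 9.48 in control skin. It fell 4.31-fold (-2.11 ± 0.45, adjusted p = 0.0408, limma), and the call was lost without any 1 of the 8 arrays (adjusted p at most 0.111). Aqp4, a water channel gene, read 7.83, 6.97, 6.28 and 6.58 in Mek1gof skin, against 8.32, 8.53, 8.88 and 7.997 in control skin. Mek1gof 1 came closest to the controls, and the gene fell 2.87-fold (-1.52 ± 0.28, adjusted p = 0.0166), with -1.03 on slide 1 and -2.01 on slide 2. With muscle list level as covariate Aqp4, which fast muscle fibres also express, read -0.94 and did not pass (adjusted p = 0.209), and the part of muscle RNA in its decrease was not tested. Its call was also lost without control 2, control 3, Mek1gof 3 or Mek1gof 4 (adjusted p at most 0.0786). The other 6 aquaporin genes did not pass and differed by -0.07 to 0.35.

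Ppargc1a, the coactivator of mitochondrial and oxidative genes, read 5.02, 4.60, 5.07 and 4.79 in Mek1gof skin, against 6.44, 6.79, 6.004 and 5.90 in control skin. It was detected on 2 Mek1gof arrays and fell 2.66-fold (-1.41 ± 0.22, adjusted p = 0.00714, limma). With muscle list level as covariate it read -1.29 and did not pass (adjusted p = 0.116), and the part of muscle RNA was not tested. None of the 16 other fatty acid oxidation genes passed, with Pdk4, a brake on glucose oxidation, at -0.96, Cpt1b, the muscle carnitine transferase, at -0.46 and Decr1 at 0.48. The list median was -0.10, and that of 23 respiratory chain genes, none of which passed, was also -0.10.

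Ddx6, an RNA helicase of mRNA storage and decay bodies, read 7.46, 7.11, 7.75 and 7.33 in Mek1gof skin, against 9.31, 9.24, 8.81 and 8.34 in control skin. It fell 2.85-fold (-1.51 ± 0.28, adjusted p = 0.0166, limma), and its other probes read -0.70 and -1.28. Pyy, which encodes a peptide hormone of the gut, read 4.87, 4.97, 4.62 and 4.53 in Mek1gof skin, 1 of them detected, against 5.06, 6.50, 6.07 and 5.96 in control skin. Control 1 lay just above the Mek1gof arrays, and the gene fell 2.22-fold (-1.15 ± 0.24, adjusted p = 0.0326). Cacna2d1, a calcium channel subunit gene, fell 2.10-fold (-1.07 ± 0.22, adjusted p = 0.0374). Ddx6, Pyy and Cacna2d1 were lost without any 1 of 5, 6 and 5 arrays (adjusted p at most 0.0773, 0.141 and 0.148).

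Fst, which encodes the activin antagonist follistatin, was the single BMP, TGF-beta and activin gene of 23 to pass, against 0.508% of all genes. It read 7.41, 7.27, 7.54 and 7.13 in Mek1gof skin, against 8.21, 8.70, 8.34 and 8.26 in control skin, and fell 2.05-fold (-1.04 ± 0.22, adjusted p = 0.0408, limma), a call lost without any 1 of the 8 arrays (at most 0.165). The list median was -0.13, with Tgfb2 at -0.51, Grem1, a BMP antagonist, at -0.38 and the BMP target Id1 at 0.00. Ddr2, a collagen receptor kinase, was the single fibroblast and matrix gene of 26 to pass, against 0.508% of all genes. It was not well above background on any Mek1gof array (4.62, 4.72, 4.94 and 4.60), was detected on all 4 control arrays (5.67, 5.51, 5.78 and 5.70) and fell at least 1.63-fold (adjusted p = 0.0135). Its call was lost without control 3 or Mek1gof 4 (adjusted p at most 0.0549). The fibroblast list had a median of -0.22, with Col1a2 at -0.84, Col3a1 at -0.52 and Pdgfrb at 0.14, none of these past the threshold.

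Smaller decreases were seen for Pik3r1, a regulatory subunit of PI3 kinase, at 10.41, 10.30, 10.51 and 10.27 in Mek1gof skin, against 10.89, 11.10, 11.31 and 11.29 in control skin (1.71-fold lower, adjusted p = 0.0326, limma). Pdlim5, a scaffold of the muscle Z-disc and of other cells, fell by 0.88, Samd5 by 0.82 and Ago3, an Argonaute protein of small RNA silencing, by 0.76 on the log2 scale. Ago3 was detected on 1 of 4 Mek1gof arrays, and its other probes read -0.15 and -0.51 without passing. The ubiquitin ligase gene Rnf125 gave -0.99 (adjusted p = 0.0106), and its other probes, neither of which passed, read -0.50 and, for the dimmest, 0.25. Pik3r1, Pdlim5, Samd5 and Ago3 were each lost without any 1 of 6 or 7 arrays (adjusted p at most 0.128, 0.16, 0.122 and 0.12).

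**Figure D3:**
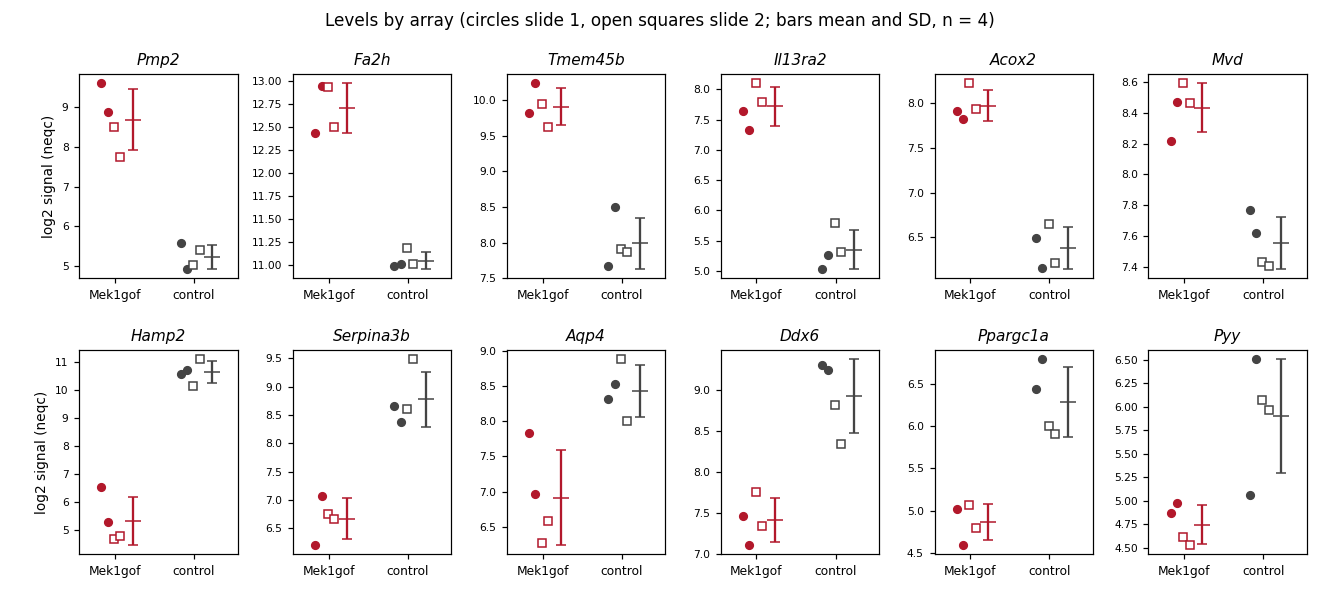
Log2 signal of 12 genes on each array, Mek1gof left and control right, with filled circles for slide 1, open squares for slide 2, and a bar for the mean and SD (n = 4). The groups do not overlap in any panel, Hamp2 sits between 4.67 and 6.54 in Mek1gof skin, and Pmp2 and Aqp4 show their Mek1gof arrays ordered by slide.

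Of the 43 lists, 28 had no member past the threshold. Skeletal muscle had 0 of 27 called in limma, with 8 lower at an unadjusted p under 0.05, against 4.60% of all genes. All 27 differences were below 0 (median -0.60, -0.26 on slide 1 and -0.89 on slide 2). Mb, the myoglobin gene, came closest at -1.28 (adjusted p = 0.0508), with 9.81, 9.43, 8.64 and 8.93 in Mek1gof skin, against 9.92, 10.64, 11.16 and 10.21 in control skin. Epidermal stress and wound genes had 0 of 24 called, at a median of 0.03. Their member S100a9, an alarmin of neutrophils and stressed keratinocytes, read 9.71, 9.42, 10.29 and 9.96 in Mek1gof skin, against 8.41, 7.76, 8.47 and 9.46 in control skin (difference 1.32, adjusted p = 0.0583), and Defb6, a defensin, differed by 0.92 (adjusted p = 0.208). Epidermal differentiation (27 genes), basal keratinocyte (12) and hair shaft (21) genes had medians of 0.07, -0.07 and -0.18. Interferon response (20), cytokine and chemokine (13), macrophage and dendritic cell (15) and T cell (7) genes had medians of -0.08, -0.06, -0.25 and 0.27. In the T cell list Foxp3, the factor of regulatory T cells, read 5.57, 5.57, 5.54 and 5.62 in Mek1gof skin, against 5.03, 4.99, 4.95 and 5.09 in control skin. Its groups were tight and apart, but the difference of 0.56 did not pass (adjusted p = 0.152). Cxcl1, a neutrophil chemokine, differed by 1.07 (adjusted p = 0.222). The haemoglobin genes Hbb-bt and Hbb-b2 varied widely within the groups, with Hbb-b2 at 6.20, 8.44, 5.68 and 8.84 in Mek1gof skin, against 8.29, 9.72, 9.23 and 9.14 in control skin.

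Some genes differed from control in opposite directions on the 2 slides. For 70 genes (0.684% of 10232) the Mek1gof difference on slide 2 departed from that on slide 1 past the threshold in limma, 35 larger and 35 smaller on slide 2, and for 66 of them the signs were opposite. None of the 52 genes above was among them, although 5 had an unadjusted p under 0.05 in that test, which 15.9% of all genes had. The 52 were selected on these same arrays and their groups did not overlap, which leaves no room for opposite signs. Their absence is therefore no separate check of slide. With only the 8 arrays in the fit 34 genes passed. The genes named here were picked from this test after their values were seen.

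Dct, a melanin synthesis enzyme, differed by -1.42 on slide 1 and 1.93 on slide 2 (adjusted p of the change 0.0432, limma). It was the 1 of 10 melanocyte genes past this test, and the list medians were -0.77 and 1.44. Of 27 cell cycle genes 2 passed, with list medians of -0.29 and 0.67. They were Birc5, a mitotic survival factor, at -0.97 and 0.77 and Bub1b at -0.53 and 0.72. Of 13 measured H2ac histone genes, whose near-identical copies may share probes, 6 passed, all larger on slide 2, at medians of -1.41 and 0.41 for the family. Hoxc9, a position factor of the trunk, differed by -1.24 and 1.95.

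Of 28 Krtap genes, which encode hair keratin-associated proteins and are also close copies, 7 passed, all smaller on slide 2, and the family medians were 0.46 on slide 1 and -0.74 on slide 2. Krtap31-1 differed by 0.58 and -2.49. The fixed hair shaft list had 1 of 21 past the test and medians of 0.05 and -0.32, with Krt35, a hair keratin, at -1.08 and 0.33. Of 12 late cornified envelope (Lce) genes 3 passed, all smaller on slide 2, with family medians of 0.76 and -0.49. Lce3c, at 0.32 and 2.95, and Lce3b, at 0.00 and 2.57, were larger on slide 2 without passing. Foxc2, a forkhead factor, differed by 1.74 and -1.74, with 7.95 and 6.03 on slide 1 and 4.63 and 4.56 on slide 2 in Mek1gof skin, against 5.38 and 5.12 on slide 1 and 6.52 and 6.14 on slide 2 in control skin. Its control arrays thus also differed by slide, in the opposite direction. The muscle genes Myh1 and Tnnc1 differed by -0.06 and -1.60 and by 0.06 and -1.98. The slide 1 Mek1gof arrays were the Xist-high ones and the slide 2 arrays the Eif2s3y-high ones, so slide, sex-linked pattern and the animals cannot be told apart in these values.

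**Figure D4:**
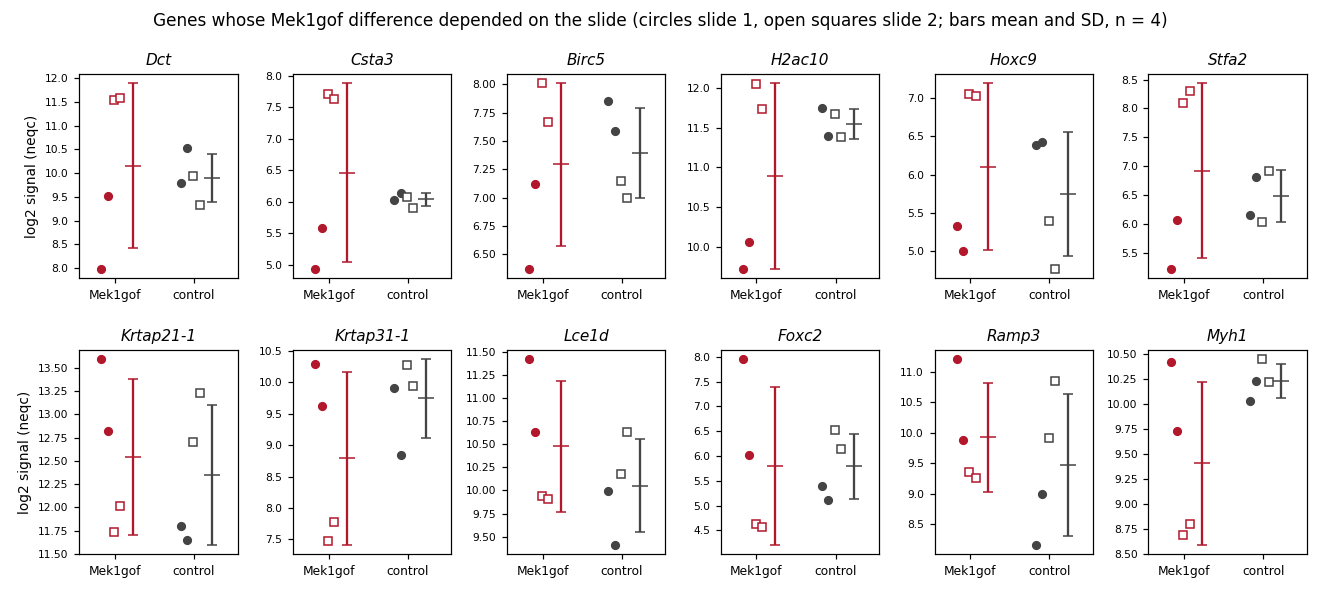
Log2 signal of 12 genes whose Mek1gof minus control difference depended on the slide, Mek1gof left and control right, with filled circles for slide 1, open squares for slide 2 and a bar for the mean and SD (n = 4). In the upper row the slide 2 Mek1gof arrays are the high ones, as for Dct, and in the lower row the slide 1 Mek1gof arrays are, as for Foxc2.

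The same Mek1 allele was present in Double skin, which is set against Shp2lof skin and shares no array with Mek1gof and control. There 99 genes passed, 44 higher (0.430%) and 55 lower (0.538%). Skeletal muscle genes were also lower in Double than in Shp2lof skin, at a list median of -0.81, against -0.60 in Mek1gof against control. The Y-linked Eif2s3y averaged 5.99 in Double and 9.96 in Shp2lof skin. The part of muscle and sex-linked levels in the differences below was not tested. All 35 genes higher in Mek1gof skin also had a positive Double minus Shp2lof difference, and 15 of them passed there. Their median was 0.96 in Mek1gof against control and 0.68 in Double against Shp2lof, with 0.02 and 0.01 over all genes. Pmp2 rose by 3.78 (adjusted p = 5.8e-07, limma), Fa2h by 2.18, Clstn3 by 1.83, Il13ra2 by 1.70, Panx3 by 1.61, Elovl3 by 1.55, Tmem45b by 1.43, Pank1 by 1.21, Acox2 by 1.03, Acss2 by 0.77 and Mvd by 0.69 in Double skin, all past the threshold. The cholesterol enzymes had a median of 0.52 in Mek1gof against control and a median of 0.33 in Double against Shp2lof.

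The decreases were not matched in number. Of the 17 genes lower in Mek1gof skin 15 had a negative Double minus Shp2lof difference but only 1, Pyy, passed, and their median was -0.99 in Mek1gof against control and -0.24 in Double against Shp2lof. Ppargc1a read -0.24, Ddx6 -0.39 and Fst -0.24 there. Shp2lof skin already lay below control skin in Ppargc1a (-1.12) and Ddx6 (-1.17), past the threshold, and in Fst (-0.78), not past it. These small differences thus start from lower levels. In a test of the difference between the settings 9 genes passed (0.0880%), of which 3 were among the 52. All 3 also differed between Shp2lof and control skin, so their starting levels were not alike. Hamp2 averaged 5.32 in Mek1gof and 10.66 in control skin, and 5.73 in Double and 6.99 in Shp2lof skin, where its difference from control was already -3.67. It was detected on 2 Mek1gof and 3 Double arrays and read 7.03, 5.81, 5.27 and 4.81 on Double arrays 1 to 4. Both differences thus end near background on some arrays, and they departed by 4.08 (adjusted p = 0.00273, limma). Pyy averaged 4.75 in Mek1gof and 5.90 in control skin, and 4.73 in Double and 9.03 in Shp2lof skin, where it was 3.13 above control. It was detected on 1 Mek1gof and 1 Double array, so both differences end near background. Its departure of -3.14 (adjusted p = 0.000246, limma) is thus no measure of 2 unequal falls. Serpina3b averaged 6.67 in Mek1gof and 8.78 in control skin, and 6.88 in Double and 5.58 in Shp2lof skin (-3.20 against control). Its Double minus Shp2lof difference of 1.30 departed from that of -2.11 by 3.41 (adjusted p = 0.0499). For the other 49 genes a gap was not shown, which does not make their differences equal.

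**Figure D5:**
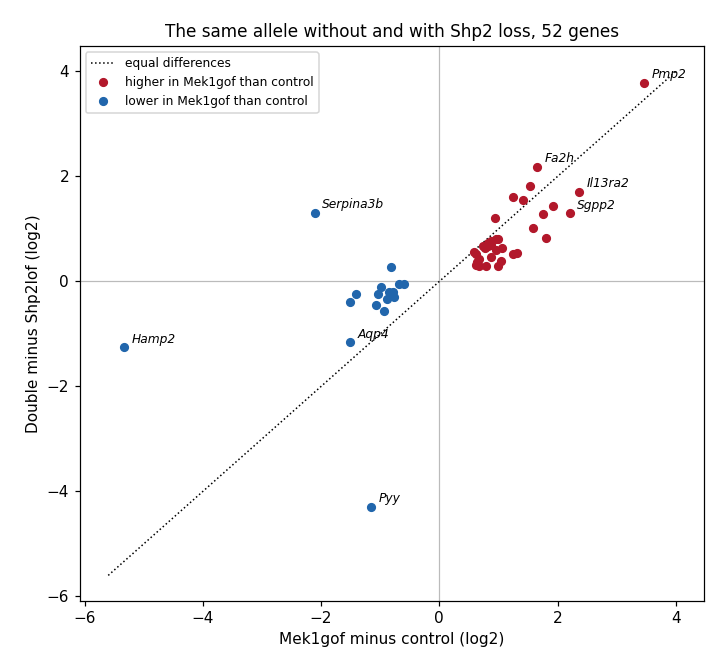
Double minus Shp2lof (log2, vertical) against Mek1gof minus control (log2, horizontal) for the 52 genes, red for those higher and blue for those lower in Mek1gof skin, with a dotted line where both are equal. All red points lie above 0 on the vertical axis, up to 3.78 for Pmp2, while Hamp2 (-5.34 and -1.26), Serpina3b (-2.11 and 1.30) and Pyy (-1.15 and -4.30) lie far from the line.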

How the data were processed

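RNA of 16 dorsal skin samples was hybridized to Illumina mouse bead arrays, 4 samples a group. The deposited table gives intensity, the mean bead signal of 25697 probes, and a detection p-value for each, which per the file headers tests the probe on that array. The submitters' processing notes name GenomeStudio, without a version. The value table deposited beside it repeats these intensity values with fewer decimals. The deposited values were not normalized between arrays, as their medians show (73.9 to 85.27 in Mek1gof, 76.72 to 90.31 in control). Between 13366 and 13733 probes were detected on Mek1gof arrays and between 13555 and 13959 on control arrays, and no 2 arrays were identical (Spearman correlations 0.9294 to 0.9546). The number of arrays limits the precision.

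From the deposited intensity, log2 values were computed with neqc of limma 3.58.1 (R 4.3.3, offset 16), whose background estimate uses the detection p-values. The offset shrinks differences of dim genes. Probes detected (p below 0.05) on at least 4 arrays were kept (14631, 56.9%). Symbols came from the supplied platform annotation, which gave 23978 probes 1 symbol, 0 several and 1719 none, updated by Entrez identifier. The probe with the highest mean stood for each of 10232 genes, 2581 of which had several. All 16 arrays entered 1 linear model of group means, fitted with lmFit and eBayes (12 residual and 5.737 prior degrees of freedom), with Benjamini-Hochberg adjustment over all genes at 0.05. The slide test used a mean per group and slide, and the test of the difference between settings was (Double minus Shp2lof) minus (Mek1gof minus control). A probe not detected on any array of a group gave only a bound, from means of normalized log2 values.

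The members and the 43 gene lists were chosen with earlier results of these data known. The rule named Map2k1, Ptpn11 and Egr2, the 15 genes furthest up and the 15 furthest down among those past the threshold without overlap, every other list member past it, and up to 2 members with the smallest p of a list with none. Other list members are given as values only. Alternatives were other normalizations, offsets, filters, probe choices and arrays in the fit, array weights, a block for slide or for replicate number, single slides, Xist and skeletal muscle levels as covariates, and each array left out. Leaving out 3 arrays of atypical sex-linked levels, Mek1gof 2, Shp2lof 4 and Double 4, was chosen after seeing the data. Mek1gof 2 read 8.82 for Xist and 6.77 for Eif2s3y, Shp2lof 4 9.12 and 8.01, and Double 4 6.96 and 4.39. Code was tested on simulated data. Figures used matplotlib 3.10.9 (Python 3.11.15).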

Additional observations from a re-analysis of the deposited data

Results flagged for a closer look

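Single arrays stood apart from the other 3 of their group in 8 of 220 groups examined, 2 groups for each of 110 genes, by the gap to the nearest array as a share of the group's range. Chance flags about 1 in 20 groups. Among Mek1gof arrays the shares were 0.86 for Gstp3 and 0.881 for Pxmp4, both on Mek1gof 4, 0.893 for Acss2 on Mek1gof 3 and 0.919 for Acly on Mek1gof 1. Among control arrays they were 0.877 for Fa2h on control 3, 0.848 for Vwf and 0.917 for Fgfr3 on control 1 and 0.853 for Cd44 on control 4. Vwf, Fgfr3 and Cd44 did not pass in Mek1gof against control skin.

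In 4 named genes the Double minus Shp2lof difference departed from the Mek1gof minus control difference in limma. The departure was 4.08 for Hamp2 (adjusted p = 0.00273), -3.14 for Pyy (adjusted p = 0.000246), 3.41 for Serpina3b (adjusted p = 0.0499) and -1.62 for Foxp3 (adjusted p = 0.00273). All 4 had already differed between Shp2lof and control skin, by -3.67 for Hamp2, 3.13 for Pyy, -3.20 for Serpina3b and 1.56 for Foxp3, each past the threshold. Hamp2 was detected on 2 Mek1gof and 3 Double arrays and Pyy on 1 of each, so their differences end near background on some arrays. The part of the Shp2lof and control levels in these departures was not tested. Foxp3 differed by 0.56 in Mek1gof against control skin, where it did not pass, and fell by 1.06 in Double against Shp2lof skin (adjusted p = 0.0016). Muscle and sex-linked levels also differed between these arrays, and their part was not tested.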

How the results depend on the processing

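The 52 calls became 24 with unnormalized signals and also 24 with the second deposited table, 34 of 16593 genes without a detection filter, 115 with array weights, 84 with slide as a block, 28 on slide 1, 193 on slide 2, 11 with muscle list level as covariate and 33 without the 3 arrays of atypical sex-linked levels, a setting chosen after seeing the data that kept 28 of the 52. Leaving out 1 array at a time gave 15 to 54. The other 8 settings gave 36 to 66. Among these, the fit of only the 8 Mek1gof and control arrays gave 54, with 38 of the 52 among them. The replicate block gave 85 genes (47 of the 52 among them), 131 in Double against Shp2lof and 10 in the test between settings. Replicate numbers were shared only as numbers, with correlations of deviations of -0.14 to 0.14 for the same number, and 2 of 4 Mek1gof arrays correlated best with their own number. With slide as a block 158 genes passed in Double against Shp2lof (99 without) and 17 between settings (9 without), and the slide test gave 34 with only the 8 arrays (70 with all). With the dimmest kept probe Mgll turned to -0.0407 and Rnf125 to 0.2518. Of 1118 list medians recomputed 94 moved by more than the spread of the Mek1gof arrays. The cause of these shifts was not tested. Genes near background have compressed differences.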
